A study of Saccharomyces cerevisiae with 8 samples.

Results

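The transcriptome of a yeast mutant lacking the transporter genes PDR5 and YOR1 and the regulator gene PDR1 was set against that of wild type through the strain that lacks the transporter genes alone. No array held the triple mutant and wild type together, so all 8 of the 8 arrays were used: 4 with the double mutant against wild type and 4 with the double against the triple mutant. The triple-over-wild-type ratio of a gene was its double-over-wild-type log2 ratio minus its double-over-triple log2 ratio, each balanced over both dye orientations. Of 6546 features on the design, 6465 were bright enough to be tested.

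All 3 strains shared the haploid laboratory background SEY6210 of Saccharomyces cerevisiae. Wild type was MATα and GAL, with marker alleles for leucine (leu2-3,-112), uracil (ura3-52), lysine (lys2-801), tryptophan (trp1-∆901) and histidine (his3-∆200) and a deletion in an invertase gene (suc2-∆9). The double mutant carried pdr5-∆1::hisG and yor1-1::hisG in that background, and the triple mutant carried pdr1::kanMX4 as well. Cells were cultured in rich YPD medium at 30 °C and harvested at an OD600 near 0.6, and no drug is named in the labels. The labels give neither separate cultures for the arrays of a comparison nor whether 1 RNA of the double mutant served both comparisons, so each p-value reflects only how far these arrays differ among themselves, which may be technical.

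Pdr1 is a zinc-cluster transcription factor that binds pleiotropic drug response elements in the promoters of its target genes, together with its homolog Pdr3. Its targets include the ABC exporters Pdr5, Yor1 and Snq2, other membrane transporters, and enzymes and transfer proteins of membrane lipids. Setting a strain without exporters and without PDR1 against wild type asks which changes of the exporter mutant remain when the factor is missing.

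PDR1 (YGL013C) itself went against the strain labels on the arrays that hold the triple mutant. Its log2 ratio, channel labelled double over channel labelled triple, was -2.88, -1.12, -2.81 and -2.63 on arrays 1 to 4. PDR1 was not well above background on any of these arrays in the channel labelled double mutant, where the labels leave the gene intact, and was well above background on all 4 in the channel labelled triple mutant. The channel labelled triple mutant exceeded the other by at least 4.79-fold, the bound that the background allows. On the arrays with wild type its log2 ratios were -0.13, 0.40, -0.09 and 0.00, close to equal in both strains. Every result below is therefore given in both readings: as labelled, and with the sign of the double-over-triple ratio turned, in which case the ratio stands for triple over double. Taken as labelled, PDR1 would be 5.31-fold higher in the triple mutant than in wild type (log2 2.41; limma adjusted p = 0.00336). Turning the sign makes it 4.98-fold lower (log2 -2.32; limma adjusted p = 0.0288), a call lost in 6 of the 8 fits that left out 1 array. Both folds rest on a signal near background.

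Median signals per array ran from 117 to 1300 intensity units, and at least 85.7% of probes in every channel stood well above background. All arrays were on 1 slide with 1 scan, so no batch can be separated. Among the arrays with the triple mutant array 2 was the dimmest, and array 4 of the comparison with wild type had the widest spread of log2 ratios, with an SD over genes of 0.458 against 0.183 to 0.278 on the other arrays. Over genes, the log2 ratios of the wild type arrays correlated with those of the triple mutant arrays, as labelled, at Pearson's r of -0.54 to -0.05. This is a description of arrays that share the double mutant. Among the arrays with the triple mutant, r was 0.79 between arrays 1 and 3 and 0.74 between arrays 2 and 4, pairs of 1 dye orientation. Between arrays of opposite orientation it was -0.07 to 0.34.

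The readings gave different transcriptomes for the triple mutant. A gene was called when its Benjamini-Hochberg adjusted p from limma over all 6465 genes was below 0.05. As labelled, 569 genes were called between the triple mutant and wild type, 177 higher (2.74% of those tested) and 392 lower (6.06%). With the sign turned 34 were called, 24 higher (0.371%) and 10 lower (0.155%), beside 1037 at an unadjusted p below 0.05. At least 2-fold and called were 27 higher and 36 lower genes as labelled, and 3 and 3 with the sign turned. The 3 lower genes with the sign turned were ERP1 and the disrupted genes PDR1 and PDR5. The spread of triple-over-wild-type log2 ratios over genes was 0.318 (SD) as labelled and 0.217 with the sign turned. The median 95% interval reached 0.21 on the log2 scale to either side in both readings. That interval lay within 1.5-fold of wild type for 82.5% of genes as labelled and for 86.4% with the sign turned. With 34 of 6465 genes called with the sign turned, 0 such calls in any list below is near the share over all genes. The turned count moved from 34 to 190 without array 4 of the comparison with wild type, and to between 1 and 19 when any other single array was left out. Of the 27 turned calls named here, all 27 were called without that array 4, but only PDR15 in all 8 such fits and PDR5 in 7, and the other 25 stood in 3 or fewer.

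Of the 6465 genes, 210 (3.25%) were called higher and 321 (4.97%) lower in the double mutant than in wild type, and these 531 changes were followed into the triple mutant. In the direct comparison, 68 genes (1.05%) were higher and 35 (0.541%) lower in the channel labelled double mutant. A change counted as vanished when the double-over-triple ratio was called toward wild type and the triple-over-wild-type ratio was not called. It counted as kept when the double-over-triple ratio was not called and the triple-over-wild-type ratio was called in the direction of the double mutant. Partly kept changes passed both tests, with a move toward wild type, and enlarged changes passed both with a move away from it. The other changes are undecided. The 531 genes were selected on arrays that also enter triple over wild type. For them only the double-over-triple ratio comes from arrays not used in that selection. Whether it shares RNA of the double mutant with the selecting arrays is not known. The same model, with a spread per gene common to both comparisons, gave both calls.

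As labelled, 322 changes were kept, 65 enlarged, 3 vanished and 141 undecided. With the sign turned, 62 vanished, 24 were kept, 3 partly kept, 3 enlarged and 439 undecided. No change was turned over in either reading. Of the 62 changes that vanished with the sign turned, 24 were higher and 38 lower in the double mutant. For 51 the 95% interval of triple over wild type lay within 1.5-fold, beside 86.4% of all genes. The median size of these 62 changes was 0.45 on the log2 scale in the double mutant and 0.09 in the triple mutant. The category asks for a call in the first and none in the second, so it selects for such a drop. Of the 62, 9 still differed from wild type at an unadjusted p below 0.05, 8 of them in the direction of the double mutant, so a vanished change is one with no call left and not one shown to be at the level of wild type. Of the 439 undecided changes, 313 had an interval within 1.5-fold, and 243 still differed from wild type in the direction of the double mutant at an unadjusted p below 0.05. An undecided change is thus neither shown to be lost nor shown to remain.

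**Figure D1:**
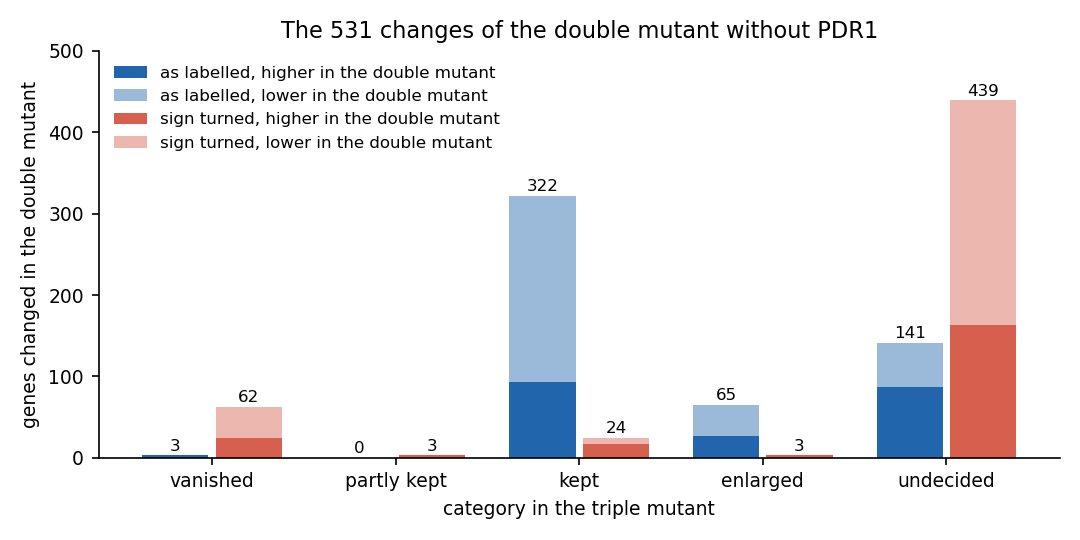
Number of genes changed in the double mutant (y axis) by category in the triple mutant (x axis), as labelled (blue) and with the sign turned (red), with dark and pale parts for genes higher and lower in the double mutant. As labelled most changes were kept (322 of 531), and with the sign turned 62 vanished and most were undecided (439).

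The changes of at least 2-fold divided as follows with the sign turned. Among the 18 genes at least 2-fold higher in the double mutant, 12 vanished, 3 were partly kept, 1 was kept and 2 were undecided. Among the 13 genes at least 2-fold lower, 2 were kept (ERP1, and PDR5, itself disrupted in both mutants) and 11 undecided. As labelled, 15 of these changes were enlarged, 9 kept and 7 undecided, and none vanished.

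**Figure D2:**
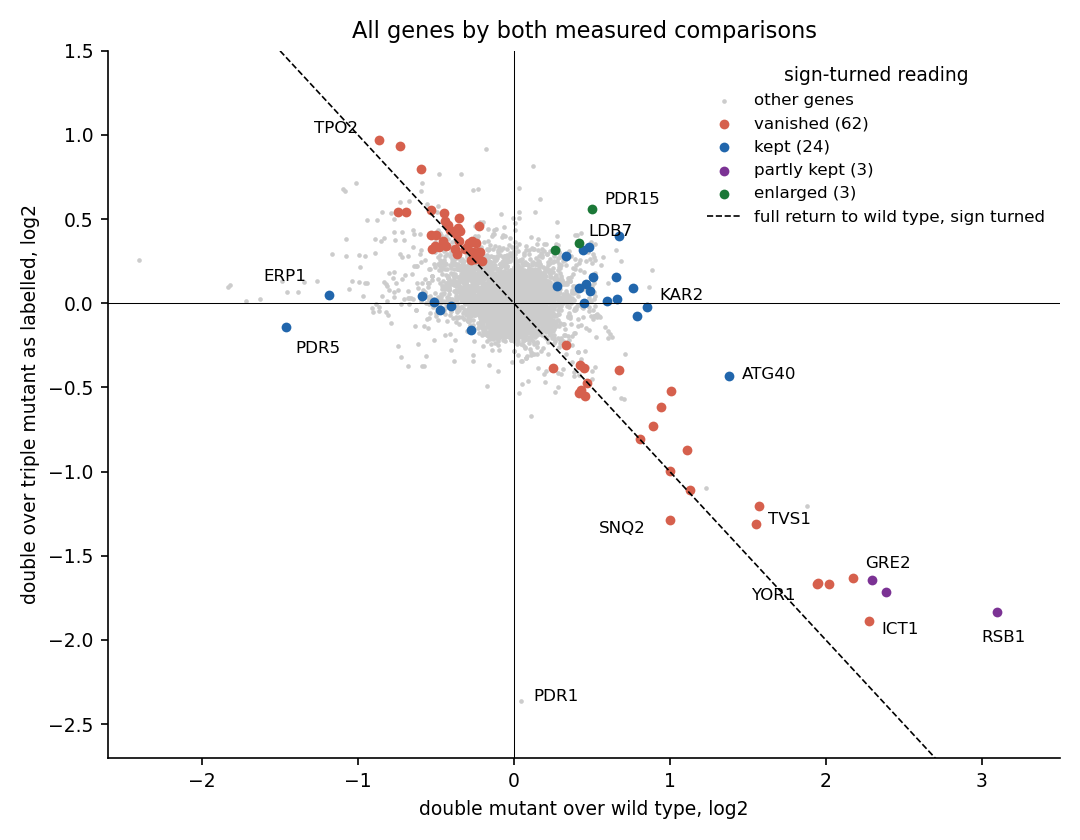
Each point is a gene, with the double-over-wild-type log2 ratio on the x axis and the double-over-triple log2 ratio as labelled on the y axis, coloured by its category with the sign turned. The dashed line marks a complete return to wild type in that reading, on which TPO1, YGP1 and PDR16 lie and near which YOR1 and ICT1 stand, while PDR5, ERP1 and KAR2 stand near a double-over-triple ratio of 0 and PDR15 is above it.

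Of the 18 genes at least 2-fold higher in the double mutant, 11 were members of the PDR regulon, the known targets of Pdr1. Of its 23 measured members, PDR5 and YOR1 included, 17 were higher and 1 lower in the double mutant, with a median log2 ratio of 0.94 against -0.01 over all genes. As labelled, 16 members were higher and 1 lower in the triple mutant than in wild type, with a median of 1.56 (0.00 over all genes). With the sign turned, 2 were higher and 1 lower, with a median of 0.17 (-0.02 over all genes), and 10, the called ones included, had an unadjusted p below 0.05. Of the 18 called members, 10 vanished in that reading, 5 were undecided and 1 each was kept, partly kept and enlarged. The kept member was PDR5, which is disrupted in both mutants, so its place does not bear on the loss of PDR1. Without PDR5 and YOR1, 9 of the 21 measured members vanished and 0 were kept. Among the vanished members YOR1, LAC1, ICT1, CIS1, LAF1 and GRE2 had a 95% interval of triple over wild type above 0. The count of vanished members ran from 8 to 14 over the alternatives and the fits without 1 array. On the arrays with wild type the list's median was 0.99, 1.04, 0.95 and 0.52, and on the arrays with the triple mutant -0.83, -0.31, -0.65 and -0.69 as labelled.

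**Figure D3:**
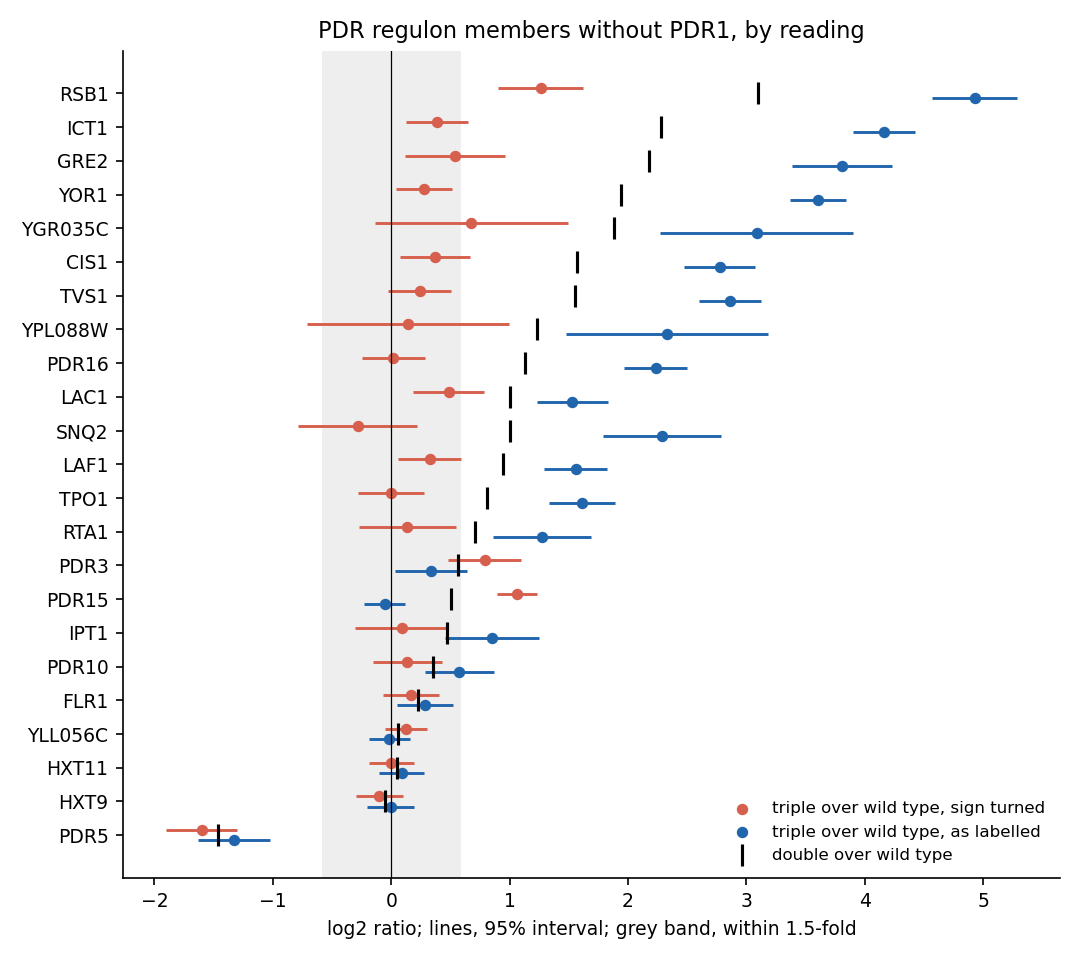
Log2 ratios (x axis) of the 23 PDR regulon members (y axis): double over wild type (black bar), and triple over wild type with its 95% interval as labelled (blue) and with the sign turned (red). In the turned reading the points of most members lie within the grey band of 1.5-fold, while RSB1, PDR15, PDR3 and YGR035C lie above it, of which RSB1 and PDR15 were called, and PDR5 lies below it.

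Among the regulon's transporters, both disrupted genes gave signal, and the files do not say where their probes lie relative to the disrupted stretches. YOR1 (YGR281W), an ABC exporter of the plasma membrane, had log2 ratios of 2.04, 2.15, 1.76 and 1.84 over wild type. On the arrays with the triple mutant it had -1.88, -1.48, -1.76 and -1.54 as labelled, so all values of the first set were positive and all of the second negative. As labelled the YOR1 signal would be 12.2-fold above wild type in the triple mutant (log2 3.61; adjusted p = 5.79e-07). In the turned reading it was 1.21-fold above wild type (log2 0.28, 95% interval 0.04 to 0.51; adjusted p = 0.258), and the change counted as vanished.

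PDR5 (YOR153W), the main drug exporter of this family, had log2 ratios of -1.14, -1.47, -1.63 and -1.62 over wild type. The double-over-triple ratios of PDR5 were -0.31, 0.07, -0.11 and -0.21, around 0 on every array. It was lower than wild type in the triple mutant in both readings, 2.51-fold as labelled (adjusted p = 0.00126) and 3.04-fold with the sign turned (adjusted p = 0.00547). Its turned call was lost without array 3 of those with the triple mutant (log2 -1.61; adjusted p = 0.0558).

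SNQ2, an ABC exporter of mutagens and drugs, had 1.03, 1.5, 0.97 and 0.51 over wild type and -1.72, -0.91, -1.45 and -1.05 over the triple mutant as labelled. It would be 4.88-fold above wild type as labelled (adjusted p = 0.00109) and had a log2 ratio of -0.28 with the sign turned (95% interval -0.78 to 0.22; adjusted p = 0.537). The double-over-triple call of SNQ2 was lost without array 1, 3 or 4 of that comparison, where adjusted p for SNQ2 became 0.0648, 0.0697 and 0.0607. TPO1, a polyamine exporter of the major facilitator family, had 0.99, 0.97, 0.75 and 0.52 over wild type and -0.95, -0.80, -0.65 and -0.83 over the triple mutant as labelled. Its turned ratio was 0.00 (95% interval -0.28 to 0.28), and as labelled it was 3.06-fold higher (adjusted p = 0.000302).

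PDR15, which encodes a close ABC-family homolog of Pdr5, stood apart from most of the regulon. It had log2 ratios of 0.61, 0.56, 0.41 and 0.43 over wild type and 0.51, 0.58, 0.65 and 0.51 over the triple mutant as labelled, so all 8 values were positive. Under the turned sign PDR15 was 2.09-fold above wild type in the triple mutant (log2 1.06, 95% interval 0.89 to 1.24; adjusted p = 0.00313), above its 1.42-fold level in the double mutant. That call stood in all 8 fits without 1 array. As labelled its triple-over-wild-type ratio was -0.06 (adjusted p = 0.747), and PDR15 was 1 of the 3 changes that vanished. PDR10, another homolog, had 0.36 in the double mutant, 0.58 in the triple mutant as labelled (adjusted p = 0.0269) and 0.14 with the sign turned (adjusted p = 0.611). The PDR10 calls in the double mutant and as labelled stood in 1 and 3 of the 8 fits without 1 array. Cross-hybridisation among PDR5, PDR10 and PDR15 was not tested. FLR1, a transporter of fluconazole, and HXT9 and HXT11, hexose transporters, were not called in any comparison. FLR1 had a turned ratio of 0.17. On the arrays with the triple mutant HXT9 was well above background on 1 of 4 in the channel labelled double mutant and on 0 in that labelled triple mutant, and HXT11 on 3 and 2, so no level is given for them.

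Among the lipid genes, RSB1, which moves sphingoid bases out of the cell, had log2 ratios of 2.64, 3.29, 3.11 and 3.34 over wild type and -2.09, -1.34, -1.91 and -2.0 over the triple mutant as labelled. As labelled it would stand 30.4-fold above wild type in the triple mutant (log2 4.93; adjusted p = 1.13e-06). RSB1 in the turned reading was still 2.4-fold above wild type (log2 1.26, 95% interval 0.90 to 1.62; adjusted p = 0.0228), down from 8.54-fold in the double mutant, and it was the 1 regulon member partly kept. The pair of arrays 1 and 2 gave 1.26 for this ratio and the pair of arrays 3 and 4 gave 1.27. The turned call was nevertheless lost in 6 of 8 fits without 1 array, in which the ratio ran from 1.14 to 1.41.

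ICT1, a lysophosphatidic acid acyltransferase, had 2.32, 2.29, 2.40 and 2.09 over wild type and -1.69, -1.84, -1.70 and -2.32 over the triple mutant as labelled. It went from 4.84-fold above wild type in the double mutant to 1.31-fold with the sign turned (adjusted p = 0.193), or to 17.9-fold as labelled (adjusted p = 5.79e-07). PDR16, a phosphatidylinositol transfer protein, had 1.06, 1.5, 0.95 and 1.00 over wild type and -1.06, -1.08, -1.18 and -1.12 over the triple mutant as labelled, with no overlap between the sets. The turned ratio of PDR16 was 0.02 (95% interval -0.25 to 0.28), and the labelled one 2.24 (adjusted p = 3.58e-05).

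LAC1, a ceramide synthase subunit, vanished with a turned ratio of 0.48 (95% interval 0.18 to 0.79), but its double-over-triple call was lost in 6 of the 8 fits without 1 array. RTA1, a member of the RSB1 family, had 0.70 in the double mutant and 0.14 with the sign turned, and was undecided since its double-over-triple ratio of -0.57 was not called (adjusted p = 0.0755). IPT1, which adds the last inositol phosphate to complex sphingolipids, was not called in the double mutant (0.47; adjusted p = 0.0527), was called at 0.85 as labelled (adjusted p = 0.019) and had 0.09 with the sign turned. All 6 lipid members had a negative double-over-triple ratio as labelled.

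Enzyme and little-studied members divided in the same manner. GRE2, a methylglyoxal reductase, had 1.89, 2.07, 2.10 and 2.64 over wild type and -1.84, -1.24, -1.52 and -1.92 over the triple mutant as labelled. It was 4.51-fold above wild type in the double mutant and 1.45-fold with the sign turned (95% interval of the log2 ratio 0.12 to 0.97; adjusted p = 0.233), or 14-fold as labelled. CIS1 and TVS1 vanished with turned ratios of 0.37 and 0.24, from 1.57 and 1.55 in the double mutant. For CIS1, array 4 with the triple mutant held an outlier spot and gave no value. LAF1 vanished as well (0.94 to 0.32), with a double-over-triple call that stood in 6 of the 8 fits without 1 array. YGR035C (1.88 to 0.68) and YPL088W, a putative aryl alcohol dehydrogenase (1.23 to 0.14), were undecided, with intervals reaching 1.49 and 0.99. On array 2 with the triple mutant both stood near 0 as labelled, at -0.23 and -0.015, while the other 3 arrays gave -1.29 or lower. Without array 4 of the comparison with wild type YGR035C and YPL088W counted as vanished with the sign turned. YLL056C was not called in any comparison.

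Of the regulators, PDR3, the homolog that binds the same elements, had 0.78, 0.71, 0.54 and 0.22 over wild type and 0.09, 0.38, 0.18 and 0.26 over the triple mutant as labelled. Its turned ratio of 0.79 (95% interval 0.48 to 1.09; adjusted p = 0.0523) and its labelled ratio of 0.33 (adjusted p = 0.201) both missed the threshold, so PDR3 was undecided in both readings. Like PDR15, it was positive on all 8 arrays. RPN4, the activator of proteasome genes, had 0.89 in the double mutant and vanished with a turned ratio of 0.16, against 1.62 as labelled (adjusted p = 0.00214). The double-over-triple call of RPN4 stood in 2 of the 8 fits without 1 array. YRR1, a related zinc-cluster factor, had -0.39 as labelled (adjusted p = 0.0176) and -0.02 with the sign turned. Of the 8 network factors, 7 had a turned interval within 1.5-fold of wild type, near the 86.4% of all genes.

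**Figure D4:**
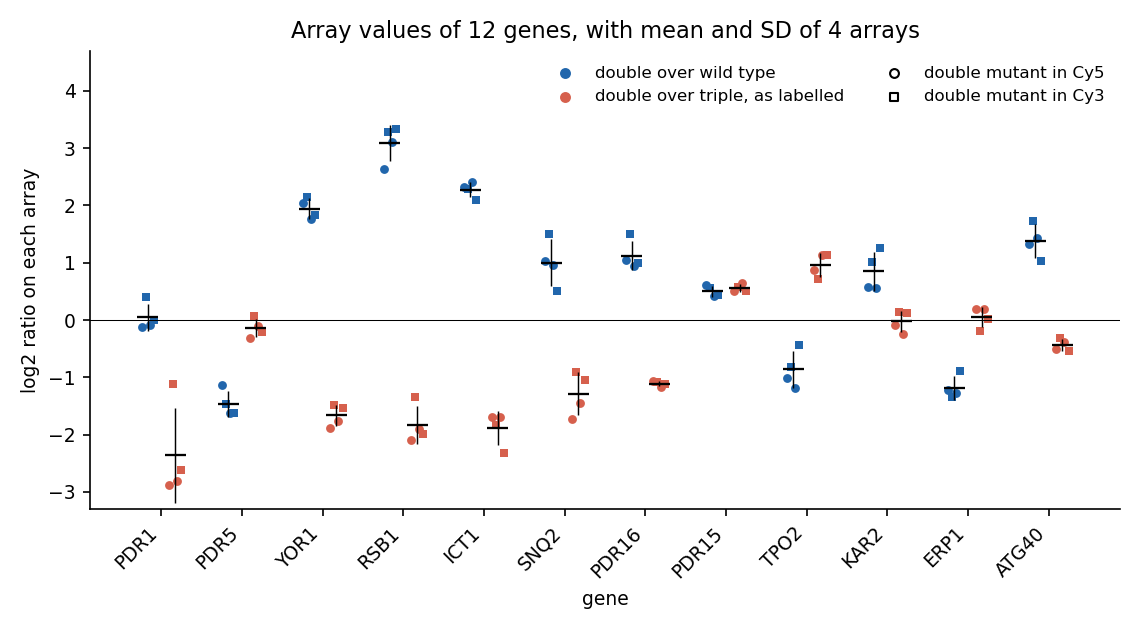
Log2 ratio on each array (y axis) for 12 genes (x axis), double over wild type in blue and double over triple as labelled in red, circles and squares marking the dye of the channel labelled double mutant, with the mean and SD of 4 arrays. YOR1, RSB1, ICT1, SNQ2 and PDR16 change sign between the sets, PDR15 stays positive in both, and PDR5, KAR2 and ERP1 lie around 0 over the triple mutant.

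Several genes outside the regulon list vanished with the sign turned and were enlarged as labelled. YGP1, a secreted cell wall glycoprotein, had 1.18, 1.36, 0.88 and 0.60 over wild type and -1.06, -1.11, -0.98 and -0.83 over the triple mutant as labelled. The turned ratio of YGP1 was 0.01 (95% interval -0.37 to 0.38) and the labelled one 2.00 (adjusted p = 0.000463). TPO2, a polyamine transporter related to TPO1 but lower in the double mutant, had -1.02, -0.81, -1.19 and -0.43 over wild type and 0.88, 0.72, 1.14 and 1.14 over the triple mutant as labelled. Its turned ratio was 0.11 (95% interval -0.26 to 0.48) and its labelled one -1.83 (adjusted p = 0.000658). Without 1 array the double-over-triple call was lost in 3 of 8 fits for TPO2 and in 2 for YGP1.

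Of the iron genes, FRE4, a ferric reductase, and HMX1, the heme oxygenase, were higher in the double mutant at 1.11 and 0.43, and FTR1, the iron permease, was lower at -0.53. All 3 vanished with the sign turned, at 0.24, -0.08 and 0.02. Of the 21 iron genes 5 were called in the double mutant, 7 in the triple mutant as labelled and 0 with the sign turned. The turned reading had 1 at an unadjusted p below 0.05, and its 0 calls are near the share over all genes. PRY1, a secreted sterol-binding protein, vanished from -0.73 to 0.20, AQR1, an exporter of the major facilitator family, from -0.60 to 0.20, and SAM3, the S-adenosylmethionine permease, from -0.69 to -0.15. PRY1 had -1.49 on array 4 against -0.43, -0.59 and -0.41 on the other arrays with wild type, and without array 4 its double-over-wild-type ratio was -0.53 and its turned ratio 0.40, called on the other side of wild type (adjusted p = 0.0419). The double-over-triple calls of PRY1 and AQR1 stood in 4 of the 8 fits without 1 array, that of HMX1 in 5, and those of SAM3, FTR1 and FRE4 in all 8.

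Calls in the sphingolipid and ergosterol lists are given beside those over all genes, of which 3.25% were higher and 4.97% lower in the double mutant. Of 28 sphingolipid genes, 3 were called in the double mutant, RSB1 and LAC1 among them, and SUR2, the sphinganine hydroxylase, vanished with the sign turned (0.42 to 0.05). Of 25 ergosterol genes 1 was called in the double mutant, ERG27, the 3-keto sterol reductase, and it vanished (0.25 to -0.13). For all 25 ergosterol genes the turned interval lay within 1.5-fold of wild type, against 86.4% of all genes. The SUR2 and ERG27 calls in double over triple were lost in 6 and 4 of the 8 fits without 1 array, and the call of ERG27 in the double mutant stood in 1 of them.

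The subtelomeric paralogs YAR066W, YAR068W, YHR214W and YHR214W-A stood with the regulon's strongest members. YAR066W, a putative cell surface protein, had 2.66, 2.13, 2.61 and 2.15 over wild type and -1.66, -1.89, -1.52 and -1.78 over the triple mutant as labelled. In the turned reading it was partly kept at 1.6-fold above wild type (adjusted p = 0.0225), and YHR214W at 1.57-fold (adjusted p = 0.0288). YAR068W and YHR214W-A vanished, with wider intervals of -0.21 to 0.92 and -0.28 to 0.85. Their place rested on array 4 of the comparison with wild type: without it both were called higher, at 0.64 and 0.58 (adjusted p = 0.0163 and 0.0159), and partly kept like the other pair. These pairs are near-identical in sequence, so the probes of each pair may read both genes. As labelled the 4 genes were 12.2-fold to 17.1-fold above wild type in the triple mutant.

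Genes of protein folding in the endoplasmic reticulum were higher in the double mutant. In the triple mutant their median was nearly the same in both readings, with fewer calls. The median 95% interval over all genes was wider for triple over wild type, at 0.21 to either side against 0.15 for double over wild type. Of 16 genes of folding and the unfolded protein response, 13 were higher in the double mutant with a median log2 ratio of 0.41. Of these 13 changes, 8 were kept and 5 undecided as labelled, and 4 were kept and 9 undecided with the sign turned. In the triple mutant 8 were higher as labelled (median 0.40) and 4 with the sign turned (median 0.43). Each reading had 13 at an unadjusted p below 0.05. Over all genes 3.25% were called higher in the double mutant, 2.74% in the triple mutant as labelled and 0.371% with the sign turned. No gene of this list was called between the double and the triple mutant, and 0 had an unadjusted p below 0.05 there. The list's median over the triple mutant as labelled lay between -0.02 and 0.05 on the 4 arrays. The turned calls of this list numbered 0 without any 1 array with the triple mutant or without array 1 of the comparison with wild type, 2 without array 2 or array 3 of the latter, and 9 without its array 4. The median stayed between 0.38 and 0.46 throughout.

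KAR2, encoding the lumenal Hsp70 of this compartment, had 0.58, 1.01, 0.56 and 1.26 over wild type and -0.09, 0.14, -0.25 and 0.12 over the triple mutant as labelled. It was 1.83-fold above wild type in the triple mutant as labelled (adjusted p = 0.00143) and 1.78-fold with the sign turned (adjusted p = 0.0177), beside 1.81-fold in the double mutant. The other called members with the sign turned were MPD1, of the protein disulfide isomerase family (0.85), SIL1, the nucleotide exchange factor of Kar2 (0.62), and FPR2, a peptidyl-prolyl isomerase (0.58), the last chosen after its values were seen. PDI1, the protein disulfide isomerase, had 0.56 with the sign turned and 0.44 as labelled and missed the threshold in both (adjusted p = 0.153 and 0.115).

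Other kept changes with the sign turned included secretory genes. ERV29, a receptor that loads soluble cargo into vesicles leaving the endoplasmic reticulum, had 0.69, 0.79, 0.57 and 0.57 over wild type and 0.02, 0.11, 0.27 and 0.23 over the triple mutant as labelled. Its ratio in the triple mutant was 0.81 with the sign turned (adjusted p = 0.0177) and 0.50 as labelled (adjusted p = 0.0102). PMT2, a protein O-mannosyltransferase, and SCS3, a membrane protein needed for normal phospholipid metabolism, had turned ratios of 0.76 and 1.07. As labelled PMT2 and SCS3 were undecided at 0.13 and 0.28. Over the triple mutant as labelled PMT2 had 0.40, 0.17, 0.54 and 0.16, and SCS3 had 0.59, 0.08, 0.72 and 0.21. YDR476C, a gene of unknown function, had 0.82 with the sign turned (adjusted p = 0.037) and 0.15 as labelled. Its values over the triple mutant were 0.68, -0.20, 0.84 and 0.01. PMT2, SCS3 and YDR476C were thus higher there on arrays 1 and 3, where the channel labelled double mutant was Cy5. ERV29 showed no such split, and SSA1 the opposite one. SSA1, a cytosolic Hsp70 chaperone, was kept with the sign turned at 0.67 (adjusted p = 0.038) and had 0.36 as labelled (adjusted p = 0.0744).

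ERP1, a p24 cargo receptor of vesicle traffic, was the lowest kept gene beside PDR5 in the turned reading. It had -1.23, -1.35, -1.27 and -0.89 over wild type and 0.19, -0.19, 0.19 and 0.02 over the triple mutant as labelled. ERP1 was 2.36-fold below wild type in the triple mutant as labelled (adjusted p = 0.00143) and 2.19-fold with the sign turned (adjusted p = 0.019). ATG40, an autophagy receptor of the endoplasmic reticulum whose gene lies next to PDR5, had 1.33, 1.73, 1.43 and 1.02 over wild type and -0.50, -0.31, -0.39 and -0.53 over the triple mutant as labelled. Its double-over-triple ratio was negative on all 4 arrays but missed the threshold (-0.43; adjusted p = 0.0873), so it counted as kept in both readings, at 1.81 as labelled and 0.95 with the sign turned. SLP1, on the other side of PDR5, had 0.32 as labelled (adjusted p = 0.0311) and 0.19 with the sign turned (adjusted p = 0.269).

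Subtelomeric genes of the Y' helicase family were also kept at small sizes. YRF1-1, YRF1-8, YHR219W and YBL112C had turned ratios of -0.55, -0.50, -0.51 and -0.42 and labelled ratios of -0.64, -0.52, -0.44 and -0.39, all called. Their double-over-triple ratios lay between -0.04 and 0.05. The copies of this family are near-identical, so their probes may not be separate measurements. NOP15, of ribosome biogenesis, was kept with the sign turned (-0.43; adjusted p = 0.038) and undecided as labelled (-0.12).

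In the turned reading, 3 changes were larger in the triple than in the double mutant: PDR15, LDB7 and PAU12, the last named after its values were seen. LDB7, a subunit of the RSC chromatin remodeller, had 0.67, 0.19, 0.47 and 0.33 over wild type and 0.53, 0.12, 0.64 and 0.14 over the triple mutant as labelled. On the arrays with the triple mutant LDB7 was higher wherever the channel labelled double mutant was Cy5. On the arrays with wild type it was also higher where the double mutant carried Cy5 (0.67 and 0.47) than where it carried Cy3 (0.19 and 0.33). Its turned ratio was 0.77 (adjusted p = 0.0163) and its labelled one 0.06 (adjusted p = 0.75). PAU12, of the seripauperin family of near-identical genes, had 0.58 and -0.05.

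Few changes appeared in the triple mutant alone with the sign turned. Of the genes not called in the double mutant, 4 were called between the triple mutant and wild type: PDR1, DIA1 and CMK2 lower and PTA1 higher. DIA1, a gene linked to invasive growth, had log2 ratios of 0.01, 0.16, 0.17 and 0.11 over wild type and -0.53, -0.68, -0.74 and -0.72 over the triple mutant as labelled. CMK2, a calmodulin-dependent protein kinase, had 0.06, 0.02, -0.03 and 0.09 over wild type and -0.58, -0.62, -0.52 and -0.42 over the triple mutant as labelled. Like PDR1, both were near 0 in the first comparison and negative on every array of the second. The turned ratios were -0.56 for DIA1 and -0.50 for CMK2 (both adjusted p = 0.0288), and the labelled ones 0.78 and 0.57. PTA1, a subunit of the mRNA cleavage and polyadenylation factor named after its values were seen, had 0.47. As labelled, 182 genes were called in the triple mutant and not in the double mutant. Whether a call in one strain and not in the other marks a difference is given by the double-over-triple ratio, which was called for DIA1 (adjusted p = 0.00105), CMK2 (adjusted p = 0.00194) and PTA1 (adjusted p = 0.0281).

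Most genes of mitochondrial respiration were lower in the double mutant. Of 36 subunits of the respiratory chain and ATP synthase, 32 were lower in the double mutant, with a median log2 ratio of -0.42. Between the double and the triple mutant 5 of the 36 were called, all higher in the channel labelled double mutant (median 0.27), and 31 had an unadjusted p below 0.05. As labelled 35 were lower in the triple mutant than in wild type (median -0.69). In the turned reading 0 were called (median -0.15), 11 had an unadjusted p below 0.05, and for 31 the interval lay within 1.5-fold of wild type. The list's median on the arrays with the triple mutant was 0.20, 0.29, 0.27 and 0.22 as labelled, positive on each, while on the arrays with wild type it was -0.36, -0.31, -0.47 and -0.49.

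Single respiration genes mostly fell short of a call between the double and the triple mutant. The cytochrome bc1 subunits QCR7 and RIP1, the oxidase subunit COX4, the dehydrogenase subunit SDH1 and the ATP synthase subunit ATP17 were called there and vanished with the sign turned. These 5 were chosen after their values were seen. RIP1, the Rieske iron-sulfur protein, had -0.21, -0.35, -0.47 and -0.47 over wild type and 0.32, 0.47, 0.58 and 0.28 over the triple mutant as labelled, and a turned ratio of 0.04 (95% interval -0.18 to 0.25). The double-over-triple calls of these 5 genes held in 1 to 4 of the 8 fits without 1 array. The other 27 called genes of the list were undecided, among them CYC1, encoding cytochrome c (-0.65 in the double mutant and -0.31 with the sign turned), and COR1 of complex III (-0.62 and -0.40). Both were kept as labelled, at -0.98 and -0.85.

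Genes named for the mitochondrial ribosome (MRPL, MRPS and RSM), a group chosen after values were seen, followed the same course. Of 54 measured, 42 were lower in the double mutant (median -0.31) and 11 were higher in the channel labelled double than in that labelled triple mutant. In the triple mutant 51 were lower as labelled (median -0.53) and 0 were called with the sign turned (median -0.08, 13 at an unadjusted p below 0.05). Of these changes 9 vanished in the turned reading and 33 were undecided. For 53 of the 54 genes the turned interval lay within 1.5-fold of wild type, against 86.4% of all genes. The 0 turned calls are near the share over all genes. Of 20 genes of the citric acid and glyoxylate cycles, 6 were lower in the double mutant, 9 in the triple mutant as labelled and 0 with the sign turned, with 5 at an unadjusted p below 0.05. CIT2, the peroxisomal citrate synthase, had -0.77, -1.19 and -0.34 in this order, the last being -0.15 without array 4 of the comparison with wild type.

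Of 32 proteasome genes, 4 were higher in the double mutant (median 0.13), 8 in the triple mutant as labelled (median 0.28) and 0 with the sign turned (median 0.02, 1 at an unadjusted p below 0.05). All 32 turned intervals lay within 1.5-fold of wild type, against 86.4% of all genes, and 0 turned calls is near the share over all genes. By limma 0 of the 32 were called between the double and the triple mutant, with 11 at an unadjusted p below 0.05. The 4 and 8 calls became 0 and 1 with a replicate block, and 0 and 0 with the scanner's processed signals or with median centring. PRE4, a core subunit, had 0.29, 0.20, 0.27 and 0.29 over wild type and -0.22, -0.07, -0.10 and -0.15 over the triple mutant as labelled. The sign of the list's turned median changed in 4 of the 20 alternatives and fits without 1 array.

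**Figure D5:**
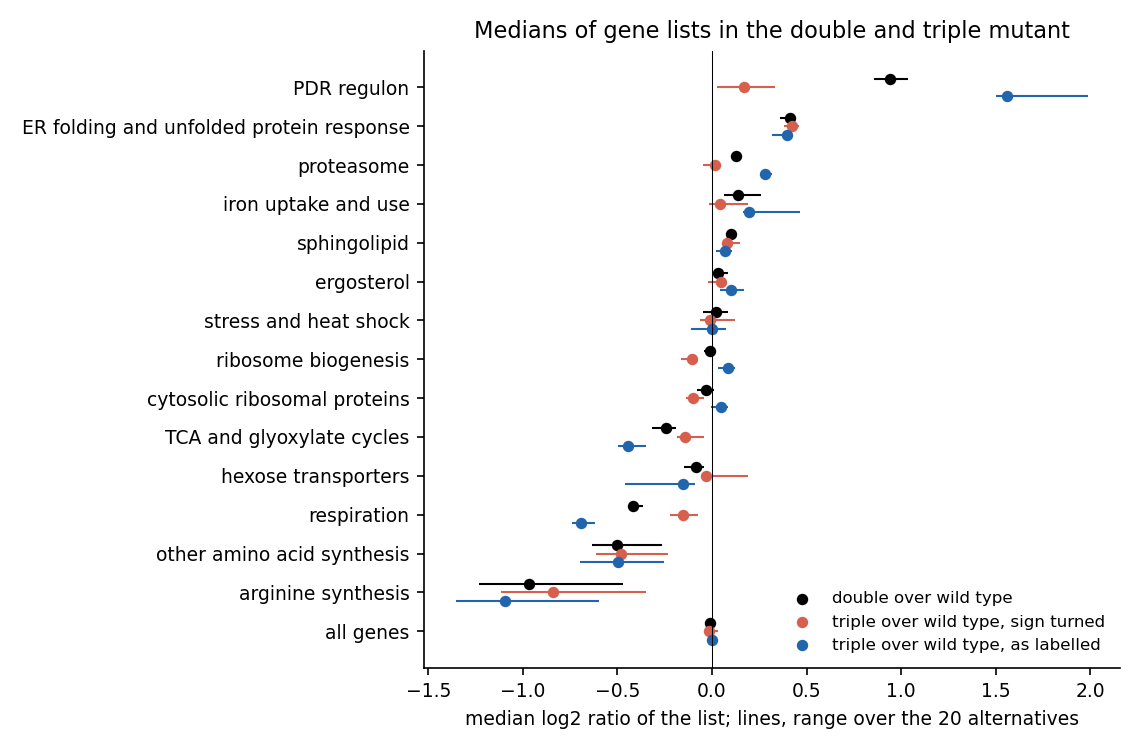
Median log2 ratio (x axis) of 14 gene lists and of all genes (y axis) in the double mutant over wild type (black) and in the triple mutant over wild type with the sign turned (red) and as labelled (blue), with lines for the range over 20 alternatives. The PDR regulon, respiration and proteasome medians are nearer 0 with the sign turned than in the double mutant, and those of folding in the endoplasmic reticulum and of amino acid synthesis are nearly the same.

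The arginine and other amino acid synthesis genes changed in the double mutant were all undecided in the turned reading, while ARG1, LEU4 and HIS1 were among those kept as labelled. Of 8 arginine genes 3 were lower in the double mutant (median -0.97), 1 in the triple mutant as labelled (median -1.09) and 0 with the sign turned (median -0.84), with 3 at an unadjusted p below 0.05. Array 4 of the comparison with wild type stood apart: the list's median there was -2.56, against -0.25, -0.66 and -0.41 on the others. Without it the list's median was -0.47 in the double mutant and -0.35 with the sign turned, and 3 arginine genes were then called in the turned reading. The double-over-triple medians were 0.07, 0.08, 0.24 and 0.02.

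ARG1, the argininosuccinate synthetase, had -1.50, -2.06, -1.61 and -4.44 over wild type and 0.39, 0.14, 0.41 and 0.08 over the triple mutant as labelled. The turned ratio of ARG1 was -2.15 (95% interval -3.27 to -1.02; adjusted p = 0.114), and the labelled one -2.66 (adjusted p = 0.0128). ARG3 and ARG4 of the same pathway had turned ratios of -1.70 and -1.22, neither called. For SNZ1 and SNO1 of vitamin B6 synthesis, the double-over-triple ratios were 0.10 to 0.12 and 0.02 to 0.14 on the 4 arrays, and the turned ratios -1.71 and -1.74 had intervals of -3.20 to -0.22 and -3.05 to -0.43. ATG41, of autophagy, and ARO5 had turned ratios of -1.36 and -1.39. Array 4 of the comparison with wild type decided these values. Without it the turned ratios were -1.53 for ARG1, -1.09 for ARG3, -0.65 for ARG4, -0.89 for SNZ1, -1.03 for SNO1, -0.82 for ATG41 and -0.74 for ARO5, all called (adjusted p of 7.9e-05 to 0.0116). LEU4 of leucine synthesis had 0.70, 0.57, 0.88 and 0.52 over the triple mutant as labelled and a turned ratio of -0.42, and as labelled it was lower at -1.75 (adjusted p = 0.00424). GCV2, of glycine cleavage, had a turned ratio of -0.70 and a labelled one of -1.46. Without the same array the turned ratios of LEU4 and GCV2 were -0.13 and -0.32, neither called.

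Of 33 other amino acid synthesis genes, 9 were lower in the double mutant, 4 in the triple mutant as labelled and 0 with the sign turned, where 9 had an unadjusted p below 0.05. The medians were -0.50, -0.50 and -0.48, and without array 4 of the comparison with wild type -0.27, -0.25 and -0.23. HIS1, of histidine synthesis, had -0.83, -0.96 and -0.70, and its turned ratio was called without that array (-0.56; adjusted p = 0.0114). Of 20 amino acid permeases 5 were lower in the double mutant, 5 as labelled and 0 with the sign turned, with 1 at an unadjusted p below 0.05.

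The genes HXT4, HXT2, ALD5, PHO3, PHO84 and ZRT1, transporters of sugar, phosphate and zinc and enzymes, were kept as labelled and undecided with the sign turned. HXT4, a hexose transporter, had -0.81, -0.85, -0.60 and -1.80 over wild type and 0.77, 0.56, 0.57 and 0.95 over the triple mutant as labelled. Its labelled ratio was -1.73 (adjusted p = 0.00397) and its turned one -0.30 (adjusted p = 0.538). HXT2, ALD5, an aldehyde dehydrogenase, and PHO3, an acid phosphatase, had labelled ratios of -1.39, -1.43 and -1.33, all called, and turned ratios of -0.31, -0.45 and -0.13. PHO84, the phosphate transporter, had -0.81 with the sign turned and -0.89 as labelled, and ZRT1, the zinc transporter, -0.35 and -0.84. TIR1, a cell wall mannoprotein, had 1.09 with the sign turned (adjusted p = 0.166) and 0.69 as labelled (adjusted p = 0.224), undecided in both. Array 4 of the comparison with wild type weighed on these turned ratios too: without it they were -0.04 for HXT4, 0.05 for HXT2, -0.22 for ALD5 and -0.25 for PHO3, none called, and -0.60 for PHO84 and 0.74 for TIR1, both called (adjusted p = 0.00988 and 0.00924).

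The translation lists held few called genes. Of 132 cytosolic ribosomal protein genes 1 was called in the double mutant and 0 in the triple mutant in either reading, with 5 as labelled and 28 with the sign turned at an unadjusted p below 0.05. The medians were 0.05 as labelled, which changed sign without array 4 of the comparison with wild type, and -0.10 with the sign turned. By limma 0 of 48 ribosome biogenesis genes were called in any comparison, with 8 as labelled and 9 with the sign turned at an unadjusted p below 0.05, and medians of 0.09 and -0.10. Of 24 stress and heat shock genes 5 were higher in the double mutant, 2 as labelled and 1 with the sign turned, SSA1. Over all genes the shares called higher were 3.25%, 2.74% and 0.371% in this order, and those called lower 4.97%, 6.06% and 0.155%.

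The neighbours of YOR1 and PDR1, PXR1, BGL2, ERG4 and PUF4, had turned ratios of -0.18, 0.18, 0.05 and -0.07 and labelled ratios of 0.10, -0.27, -0.08 and 0.07, none called. Of the auxotrophic markers, LEU2 was lower as labelled at -1.14 (adjusted p = 0.0128) and had -0.38 with the sign turned. LYS2, URA3 and TRP1 were called in neither reading, LYS2 and URA3 with turned ratios of -0.71 and -0.10. TRP1 was not well above background on any array in the channel labelled triple mutant. Without array 4 of the comparison with wild type LEU2 and LYS2 had turned ratios of -0.14 and -0.35.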

How the data were processed

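Expression was measured on 8 two-colour Agilent yeast arrays of 13092 probes for 6546 features, 4 with the double mutant against wild type and 4 with the double against the triple mutant, each comparison with both dye orientations. Per the file headers, the deposited values are spot intensities (mean, local background and processed signal, with flags) that the authors extracted with Agilent Feature Extraction 10.7.3.1. No later normalization is in these files. The deposited table of the whole series holds 8 value columns whose names match no array, and they were not used.

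Mean intensities were corrected with normexp (offset 50) and normalized by loess within each array, in R 4.3.3 with limma 3.58.1. The 536 control spots were left out. A probe was kept when well above background in at least 4 of 16 channel measurements, which left 12872 probes and 6465 genes, and the brighter probe stood for a gene. The filter left out 81 features. Another 84 spots of kept genes were missing as outliers and entered no fit. RefSeq's gene table named 5953 features, and 593 kept the name of the array design. A limma model over all 8 arrays held both comparisons and a dye term, with 5 residual degrees of freedom, and triple over wild type was a contrast of its coefficients. Where a fold is given for PDR1 as a bound, the dim channel was set at the lowest signal well above background. The number of arrays limits the precision. P-values were adjusted by the Benjamini-Hochberg method over all 6465 genes, and every adjusted p given is limma's. The calculation was tested on simulated data.

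Named genes were those disrupted, the 10 highest and 10 lowest called in each reading with 1 sign in both dye-swap pairs, the PDR regulon, up to 4 members of each other list, changes of at least 2-fold in the double mutant, and neighbours and markers of the disrupted genes. Genes outside this rule are said to be chosen after their values were seen. The comparison, the members and the lists were chosen with earlier results of these data known. A single gene chosen by it is not reported here. Alternatives covered background correction, normalization, dim probes, probes of a gene, the dye term, array weights, dye-swap pairs, replicate numbers and each array left out.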

Additional observations from a re-analysis of the deposited data

Results flagged for a closer look

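Among 200 pairs of a gene and a comparison, 1 array stood far from the other 3 in 15, where chance alone marks about 1 in 20. On array 4 of the double mutant against wild type this held for PRY1 (-1.49), ARG3 (-3.61), ARG4 (-3.01), SNZ1 (-4.34), PHO84 (-1.51), GCV2 (-2.30) and ARO5 (-3.33), each lower there than on the other arrays. YAR068W (1.15) and YHR214W-A (1.06) were also lower on array 4 than on the others. ERG27 stood out on array 3 of the same comparison (0.44). Among the arrays with the triple mutant, as labelled, PDR1 (-1.12) and YPL088W (-0.015) were nearer 0 on array 2, HMX1 (-0.83) and COX9 (0.08) stood lower on array 4, and COX4 (0.43) stood higher on array 3. What sets these arrays apart was not tested.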

How the results depend on the processing

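The 217 called values of named genes kept their direction under all 12 alternatives and in all 8 fits without 1 array. They were chosen as called on the same arrays, so a kept direction is a weak check. Under the alternatives the turned values kept their call 194 times and lost it 130 times, and without 1 array 54 and 162 times. For double over wild type these numbers were 833 and 151, and 565 and 91. For double over triple they were 379 and 77, and 223 and 81. The labelled triple-over-wild-type values gave 769 and 71, and 514 and 46. Counts of called genes and of categories moved far. The counts follow in the order double over wild type, double over triple, triple over wild type as labelled, and the same with the sign turned, and then changes kept and enlarged as labelled and vanished and kept with the sign turned, against 531, 103, 569, 34, 322, 65, 62 and 24. Median centring in place of loess gave 54, 21, 103, 2, 27, 15, 15 and 1. The scanner's processed signals gave 38, 29, 106, 3, 14, 16, 15 and 1. Array weights moved 6 of them, to 277 double over wild type, 2045 double over triple, 90 turned, 83 kept and 178 enlarged as labelled, and 169 vanished. Scaling arrays to 1 spread gave 310 double over triple, 143 enlarged, 143 vanished and 12 kept with the sign turned. Without a dye term 17 genes were called in the turned reading and 12 changes kept. Averaged dye-swap pairs gave 26 double over triple, 0 turned (where 1037 had an unadjusted p below 0.05 in the full fit), 19 enlarged, 19 vanished and 0 kept turned. Same-numbered deviations correlated at -0.69, 0.02, -0.62 and -0.59 as labelled and at 0.69, -0.02, 0.62 and 0.59 with the sign turned, where 3 of the 4 arrays against wild type correlated best with their own number. These deviations were taken after removing 1 dye effect common to both comparisons. A dye effect that differs between the comparisons stays in them with opposite signs as labelled. Same-numbered arrays share their dye orientation, so such an effect alone gives a negative correlation as labelled and a positive one turned. The correlations therefore cannot tell whether the numbers pair the arrays. Number 2 stayed near 0 in both readings, and the numbers were not taken to pair the arrays. The fit with a replicate block gave 250, 40, 345, 7, 169, 31, 30 and 4. That block entered both comparisons with 1 sign as labelled. In the turned reading a shared double mutant would enter them with opposite signs, so the 7, 30 and 4 do not check that reading. Without 1 array the counts ran from 201 to 822, 23 to 469, 274 to 1042, 1 to 190, 141 to 435, 17 to 231, 17 to 218 and 0 to 130, the turned call count and kept count being highest without array 4 against wild type. Some single calls were fragile too. As labelled, the calls of HXT2, GCV2, SLP1 and FPR2 stood in 2 of the 8 fits without 1 array, and those of YRR1, IPT1 and PDR10 in 3. In the double mutant those of ARG4, SNZ1, SNO1, HXT2, TIR1 and ARO5 stood in 2, and those of ERG27 and PDR10 in 1. Regulon members higher as labelled (16) and vanished with the sign turned (10) ran from 12 to 17 and from 8 to 14. The causes were not tested.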
